A study of Mus musculus with 8 samples.

Results

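The transcriptional effect of losing PPARγ that regulatory T cells (Tregs) of skin and of spleen have in common was examined by setting all 4 libraries with deleted Pparg against all 4 libraries with intact Pparg, with tissue as a term of the model. All 8 of the 8 libraries of the series entered this comparison. The mice were 2 weeks old (day 13 in the sample names) and untreated. WT stands for Pparg+/+ Foxp3-Cre mice and KO for Pparg f/f Foxp3-Cre mice, in which Cre recombinase is driven by Foxp3 and so acts in Foxp3-expressing cells. Every animal, controls included, carried Foxp3-Cre, so an effect of the Cre allele itself is common to both genotypes. The 4 combinations of genotype and tissue had 2 libraries each, and each library was made from 1000 Tregs sorted in 2 rounds. The number of animals behind a library, and whether skin and spleen libraries came from the same animals, is not stated in the sources used here. The p-values therefore measure only the spread between these libraries, which may be partly technical.

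Tregs are CD4 T cells that depend on the transcription factor FOXP3 and hold immune responses in check. In non-lymphoid tissues they acquire an effector program of homing receptors, cytokines and repair factors, and PPARγ is best known in Tregs for its part in the visceral fat population. PPARγ is a nuclear receptor that pairs with a retinoid X receptor, binds direct repeats of a short DNA hexamer, and changes transcription when fatty acids or their derivatives bind it.

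Library totals ran from 3115832 to 4466963 counts, with 17262 to 19274 genes detected, and 12414 genes had enough counts to be tested. CPM here means the count per library size after TMM scaling, unless it is said to be of the total count. The 10 T cell markers summed to 5330 CPM of the total count in the lowest library and to 8490.1 in the highest. In every group replicate 1 carried Xist and replicate 2 carried Y-linked transcripts, so sex and replicate number coincide. KO skin replicate 1 stood apart in a few genes of other cells. H2-Aa stood there at 38.1 CPM of the total count, against at most 2.24 in the other libraries. Cd8a stood there at 7.04 CPM of the total count, against at most 1.28.

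Pparg itself (chr6:115360951-115490399, mm10) checked the labels. It stood in skin at 75.7 and 59.8 CPM (WT) against 8.46 and 13.3 (KO), and in spleen at 22.5 and 12.3 against 2.16 and 1.66. Every KO library lay below every WT library of its own tissue. Over both tissues Pparg fell 7.12-fold, a log2 change of -2.83 ± 0.27 (SE) with an edgeR adjusted p of 8.55e-05, and its falls in skin (-2.65) and spleen (-3.19) did not differ beyond their spread (edgeR adjusted p = 0.845 for the difference). The count covers the whole gene, and the sources used here do not say which exons are floxed. Foxp3, the lineage factor, did not pass the test, with a log2 change of -0.12 ± 0.10 (edgeR adjusted p = 0.886). It stood in skin at 330.3 and 380.1 CPM (WT) against 261 and 328 (KO), and in spleen at 203 and 174 against 197 and 190.3.

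Beyond Pparg, some genes fell in the test over both tissues and stood lower in the KO libraries of each. They included the neuronal surface protein gene Nrn1, the mitochondrial alanine aminotransferase gene Gpt2, the chemokine receptor gene Xcr1 and the cytokine gene Il10. Genes that rose over both tissues were fewer. Among them Iigp1, an interferon-inducible GTPase, had the smallest p, and Uckl1os, an antisense gene of low level, the largest fold change. In edgeR's quasi-likelihood test with Benjamini-Hochberg adjustment, 44 of the 12414 tested genes (0.354%) passed an adjusted p of 0.05, and these are the genes written of as called. Of them 37 fell (0.298%) and 7 rose (0.0564%). In 42 of the 44 both KO libraries lay beyond both WT libraries, in the same direction, within skin and within spleen. These 42, with 35 lower (0.282%) and 7 higher (0.0564%), are called shared below. The other two, Atf3 and Gem, also had the same sign in both tissues but overlapped in spleen.

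The size of the shared effect was uneven. Among the 37 genes that fell the median fall was 2.50-fold, from 1.36-fold to 22.0-fold, and 23 fell by more than 2-fold. Among the 7 that rose the median was 1.63-fold, from 1.34-fold to 4.87-fold, and 2 exceeded 2-fold. The median log2 change of the genes that fell was -1.21 in skin and -1.15 in spleen, and the medians of those that rose were 0.87 and 0.72. Of all 44, 21 had the larger change in skin and 23 in spleen.

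The number of calls depended on the test and on single libraries. It was 81 (13 higher and 68 lower) with edgeR 4 outside its legacy mode, and both modes had been run before the legacy mode was taken for the values here. It dropped to 7 or 13 when replicate 1 or 2 of KO skin was left out, to 22 without WT skin replicate 1, and to 27 or 28 without replicate 1 or 2 of WT spleen. With upper-quartile scaling 11 genes rose and 28 fell, against 7 and 37 with TMM. Pparg, Nrn1, Gpt2, Frmd5, Zbtb32, Iigp1 and Xcr1 kept their call in all 21 alternatives tried, and the other 37 lost it in at least 1, none with a reversed sign.

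**Figure D1:**
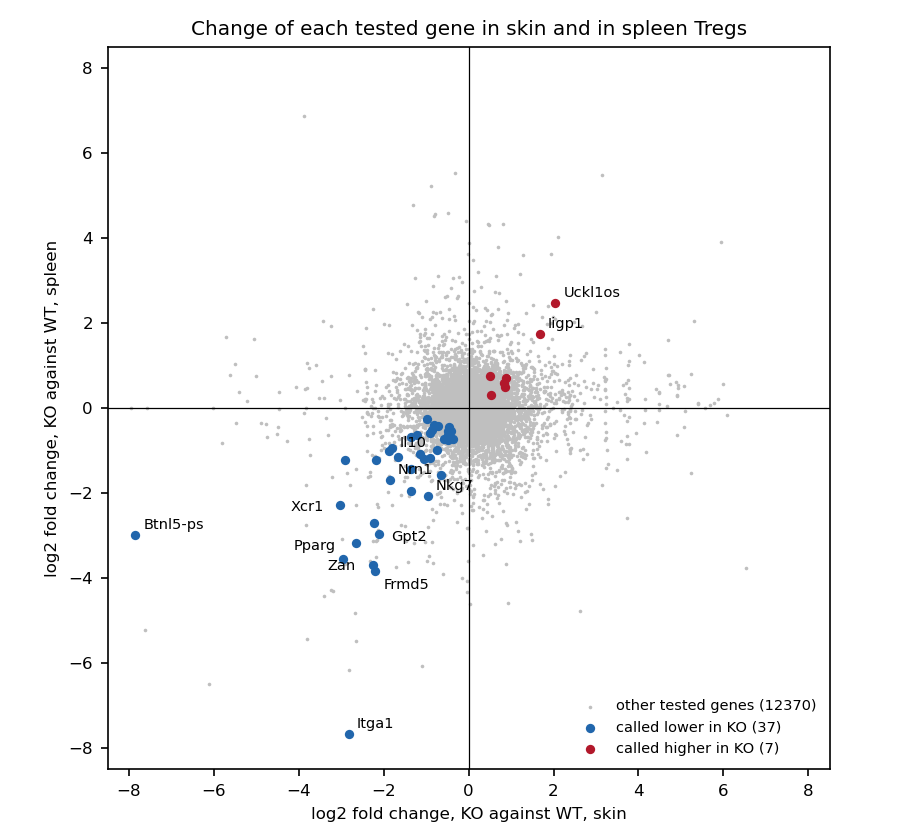
Log2 fold change of KO against WT in skin (x axis) and in spleen (y axis) for each of the 12414 tested genes, with the 37 genes called lower over both tissues in blue and the 7 called higher in red. All 44 called genes lie in the lower left or upper right quadrant, which the model with 1 common effect favours, while the other genes scatter around 0 in all quadrants. The fitted values of Itga1 in spleen and Btnl5-ps in skin rest on KO libraries with 0 counts.

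Taken one by one, the 7 genes that kept their call in all alternatives differed in tissue level and in size of change. Gpt2 (chr8:85492576-85527560), which makes alanine and 2-oxoglutarate from pyruvate and glutamate, stood in skin at 139 and 104 CPM (WT) against 25.6 and 30.8 (KO), and in spleen at 10.3 and 5.72 against 0.27 and 1.66. The KO libraries were the low ones in both tissues, without overlap, and the fall over both was 4.87-fold (log2 -2.28 ± 0.26, edgeR adjusted p = 0.000787). Nrn1 (chr13:36725361-36735131), encoding the GPI-anchored protein neuritin, stood in skin at 167 and 95.7 CPM (WT) against 43.6 and 28.7 (KO), and in spleen at 16.4 and 16.6 against 5.67 and 4.51. It fell 3.49-fold (log2 -1.80 ± 0.21, edgeR adjusted p = 0.000787), with -1.86 in skin and -1.70 in spleen, and the groups did not overlap.

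Frmd5 (chr2:121545529-121807087), a FERM-domain protein of cell junctions, stood in skin at 90.0 and 50.2 CPM (WT) against 17.7 and 13 (KO), and in spleen at 25.5 and 21.8 against 1.35 and 1.90. The groups did not overlap, and the fall was 6.60-fold (log2 -2.72 ± 0.31, edgeR adjusted p = 0.00163). It was larger in spleen (-3.83) than in skin (-2.19), a difference that did not pass adjustment (edgeR adjusted p = 0.287). Zbtb32 (chr7:30589681-30598909), a zinc finger repressor of lymphocyte proliferation, stood in skin at 87.8 and 73.0 CPM (WT) against 40.4 and 36.8 (KO), and in spleen at 63.7 and 91.0 against 36.4 and 31.1. Its WT libraries were about equally high in both tissues and its KO libraries about equally low, and it fell 2.18-fold (log2 -1.13 ± 0.15, edgeR adjusted p = 0.00246).

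Xcr1 (chr9:123852315-123862029), the receptor of the chemokine XCL1, stood in skin at 90.8 and 87.2 CPM (WT) against 15.3 and 6.34 (KO), and in spleen at 7.72 and 2.00 against 0.809 and 1.19. The groups did not overlap in either tissue, although spleen levels were low throughout, and the fall was 7.28-fold (log2 -2.86 ± 0.38, edgeR adjusted p = 0.00511). XCR1 is also a marker of cross-presenting dendritic cells, whose defining genes Clec9a and Flt3, with Cd207 of Langerhans cells, were under 2 CPM of the total count in all 8 libraries. Other markers of the list were higher, with Epcam at up to 144 CPM of the total count, Cd74 at up to 80.2, H2-Ab1 at up to 43.7 and Zbtb46 at up to 13.5. The summed level of the 12 Langerhans and dendritic cell markers, Xcr1 included, was 229 to 279 CPM of the total count in skin of WT and 214 to 292 in skin of KO mice, and 73.4 to 76.6 against 52.8 to 53.8 in spleen. Without Xcr1 the other 11 summed in skin to 147 and 199.9 (WT) against 278 and 208 (KO), higher in both KO libraries, and in spleen to 65.0 and 74.5 against 52.9 and 51.5.

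Iigp1 (chr18:60376027-60392634) was the reverse case. It stood in skin at 22.4 and 42.7 CPM (WT) against 93.5 and 111 (KO), and in spleen at 48.0 and 49.8 against 123 and 203. All 4 KO libraries were above all 4 WT libraries, and the gene rose 3.26-fold (log2 1.71 ± 0.20, edgeR adjusted p = 0.00246), with 1.68 in skin and 1.74 in spleen.

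**Figure D2:**
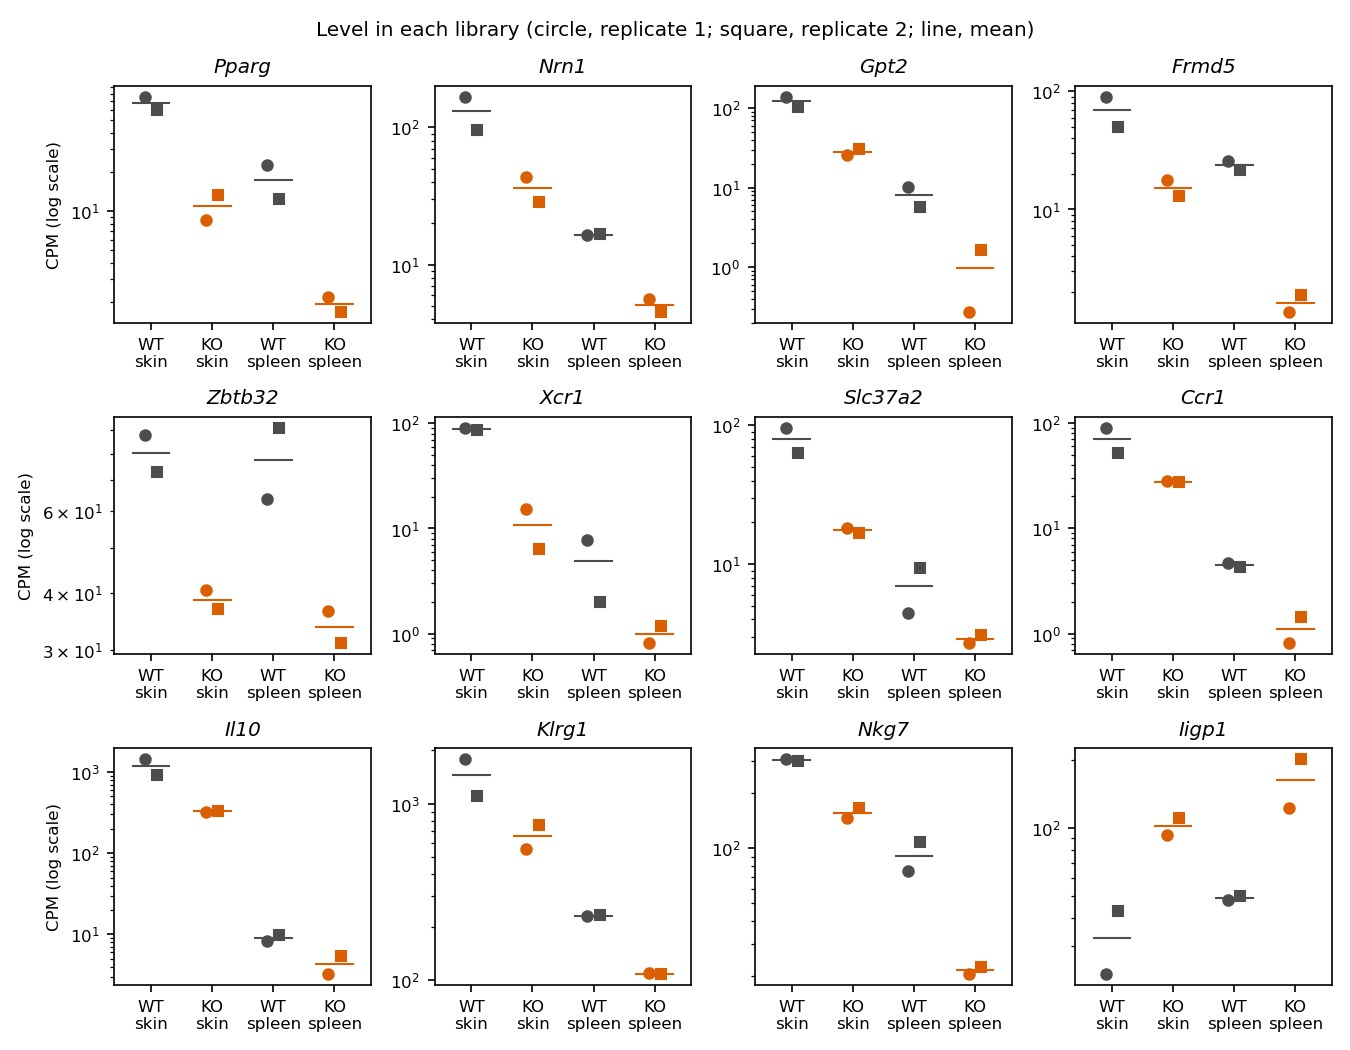
Level of 12 shared genes in each of the 8 libraries in CPM on a log scale (circle, replicate 1; square, replicate 2; line, mean of the 2; grey, WT; orange, KO). In each panel both KO libraries of a tissue lie on one side of both WT libraries of that tissue, below them for all but Iigp1.

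To show what stands in front of genes that fell together, the promoters of Pparg and of 3 of the leading shared genes are given, 300 bases around the start of each gene, 5′ to 3′ along the gene, from RefSeq on GRCm38.p6. Capitals mark the hexamer AGGTCA or, on the other strand, TGACCT. The windows are chr6:115360894-115361193 for the first start of Pparg (+ strand), chr8:85492326-85492625 for Gpt2 (+ strand), chr2:121807008-121807307 for Frmd5 (- strand) and chr9:123861980-123862279 for Xcr1 (- strand).
Pparg: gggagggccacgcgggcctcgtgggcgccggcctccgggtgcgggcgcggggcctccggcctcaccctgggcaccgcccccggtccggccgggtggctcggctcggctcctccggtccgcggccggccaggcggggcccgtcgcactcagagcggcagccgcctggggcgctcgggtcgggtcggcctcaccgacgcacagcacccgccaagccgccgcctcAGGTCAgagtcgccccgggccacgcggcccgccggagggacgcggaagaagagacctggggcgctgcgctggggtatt
Gpt2: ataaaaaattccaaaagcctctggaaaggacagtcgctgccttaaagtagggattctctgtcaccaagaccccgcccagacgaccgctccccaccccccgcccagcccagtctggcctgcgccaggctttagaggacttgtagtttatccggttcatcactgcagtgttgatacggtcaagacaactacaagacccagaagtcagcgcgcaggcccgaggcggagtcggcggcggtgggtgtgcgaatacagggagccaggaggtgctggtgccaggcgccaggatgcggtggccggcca
Frmd5: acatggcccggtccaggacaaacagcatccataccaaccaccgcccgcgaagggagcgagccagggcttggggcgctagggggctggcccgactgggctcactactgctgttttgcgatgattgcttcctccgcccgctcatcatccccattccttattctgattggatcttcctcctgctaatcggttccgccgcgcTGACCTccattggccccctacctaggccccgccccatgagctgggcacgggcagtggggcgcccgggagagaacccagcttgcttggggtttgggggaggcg
Xcr1: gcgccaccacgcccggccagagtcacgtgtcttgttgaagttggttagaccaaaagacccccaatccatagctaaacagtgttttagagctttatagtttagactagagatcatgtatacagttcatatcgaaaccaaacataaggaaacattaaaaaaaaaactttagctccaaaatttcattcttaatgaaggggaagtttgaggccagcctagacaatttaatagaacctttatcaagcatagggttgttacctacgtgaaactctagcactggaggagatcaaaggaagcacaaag
The window of Pparg held a hexamer that begins at -28 from the start, and that of Frmd5 held one at -52. The windows of Gpt2 and Xcr1 held none. The direct repeat that the heterodimer binds, 2 copies of AGGTCA in the same direction with any 1 base (N) between them, was searched on both strands in the promoters of 25 of the 35 shared genes that fell and was in none of them, beside 4 of 8914 tested genes with a promoter in the table (0.0449%). The single hexamer was in 6 of the 25 (24.0%) and in 1 of 4 shared genes that rose (25.0%), beside 14.8% of tested genes and 18.1% of the 27025 genes of the table. Counted per promoter, since a gene can have several, it was in 18.4% of the 38 promoters of the 25 genes, beside 12.4% of 11351 promoters of tested genes and 16.3% of the 32851 of the table. These are matches of letters in short windows, and no binding was measured.

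The effector mediators among the shared genes are lower in KO in both tissues by the rule that defines shared genes. They started from very different levels. In spleen alone none passed (edgeR adjusted p = 0.434 for Il10, 0.226 for Klrg1 and 0.967 for Areg). In skin alone Il10 (edgeR adjusted p = 0.000767) and Areg (0.0302) passed and Klrg1 (0.102) did not. Il10, encoding a suppressive cytokine, stood in skin at 1452 and 926 CPM (WT) against 324 and 329.7 (KO), and in spleen at 8.19 and 9.73 against 3.24 and 5.46. No KO library overlapped the WT libraries of its tissue, and the fall over both was 3.20-fold (log2 -1.68 ± 0.21, edgeR adjusted p = 0.0142). Klrg1, an inhibitory lectin receptor of mature effector cells, stood in skin at 1792 and 1100.3 CPM (WT) against 551 and 759 (KO), and in spleen at 231 and 232 against 109.5 and 108. It fell 2.17-fold (log2 -1.12 ± 0.15, edgeR adjusted p = 0.0154), with -1.14 in skin and -1.09 in spleen. Areg, the EGF receptor ligand amphiregulin, also met the rule (2.50-fold lower, edgeR adjusted p = 0.0356), but with spleen levels of 0.936 and 1.14 CPM (WT) against 0.809 and 0.474 (KO) its call rests on skin. There it stood at 501 and 260.1 CPM in WT and 144 and 153 in KO.

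Some of the called genes encode surface receptors or adhesion proteins. They are placed together here after their values were seen. In the chemokine receptor list 2 of 17 tested genes were called, and in the integrin list 1 of 20, all lower. Over all tested genes 0.298% were called lower. Ccr1, a receptor of inflammatory CC chemokines, fell 2.81-fold (edgeR adjusted p = 0.0142). Cd200r1, an inhibitory receptor, fell 1.63-fold (0.0464), and Antxr2, a receptor for extracellular matrix, fell 1.46-fold (0.0327). Itga1, the α1 integrin chain that binds collagen, stood in skin at 32.3 and 11.7 CPM (WT) against 2.64 and 3.62 (KO), and in spleen at 4.68 and 9.16 against 0 in both libraries. Against a floor of 3 counts over the KO spleen libraries, it was at least 17.7-fold lower in KO spleen (52 counts in WT), and its adjusted p over both tissues was 0.0205 in edgeR. This floor covers counting error only, as do the others here, because amplified reads without molecular identifiers are not independent molecules. Ctnna1, the α-catenin that links cadherins to actin, fell 1.43-fold (edgeR adjusted p = 0.0495) and was the least stable call, ended by 16 of the 21 alternatives.

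Further called genes, set side by side here after their values were seen, encode calcium- or actin-binding and scaffold proteins. Anxa1, annexin A1, fell 2.12-fold over both tissues (edgeR adjusted p = 0.0178). It passed in skin alone (log2 -1.21, edgeR adjusted p = 0.00668). In spleen alone it did not (log2 -0.65, edgeR adjusted p = 0.793), with 23 and 17 counts in WT against 10 and 16 in KO. The call of Anxa1 therefore rests mainly on skin. S100a4 fell 1.56-fold (edgeR adjusted p = 0.0365), S100a6 fell 1.53-fold (0.0433) and Ahnak, a very large scaffold protein, fell 1.36-fold (0.0137). Ahnak shows how a small step passed: it stood in skin at 2234 and 2198 CPM (WT) against 1567 and 1669 (KO), and in spleen at 557 and 652 against 473 and 419. The replicates lay close together and the log2 changes were -0.45 in skin and -0.44 in spleen. Gsn, the actin-severing protein gelsolin, fell 1.69-fold (edgeR adjusted p = 0.0137).

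The next called genes are likewise named one by one, and no class of genes was tested through them. Ubash3b, a phosphatase that dampens T cell receptor signals, fell 1.49-fold (edgeR adjusted p = 0.0142), the adaptor gene Nck2 fell 2.06-fold (0.0256), and the Src-family kinase gene Lyn fell 2.00-fold (0.0216). The log2 change of Lyn was -1.57 in spleen and -0.65 in skin, and the difference did not pass (edgeR adjusted p = 0.277). Tox2, an HMG-box factor, fell 2.61-fold (edgeR adjusted p = 0.0271) and the repressor gene Atxn1 1.44-fold (0.0341). Slc37a2, a phosphate-linked sugar transporter of the endoplasmic reticulum, fell 3.68-fold (0.00527), and F13a1, a transglutaminase subunit that crosslinks fibrin, fell 4.5-fold (0.0155). F13a1 is also a gene of macrophages, and of the macrophage genes Lyz2, Itgam, Fcgr1 and Cd163 were under 2 CPM of the total count in all libraries, whereas Csf1r reached 10.2, Cd68 9.27, Adgre1 6.18, C1qb 5.67, C1qa 5.15 and Mrc1 4.12. The 14 myeloid markers summed in skin to 131 to 142 CPM of the total count (WT) against 183 to 248 (KO), and in spleen to 245 to 312 against 337 to 376, nearly all of it Ctss. Without Ctss they summed in skin to 10.1 and 5.13 (WT) against 7.77 and 7.29 (KO), and in spleen to 11.6 and 29.98 against 19.7 and 40.7. Their part in the result was not tested.

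Nkg7, a cytotoxic granule membrane protein, fell in both tissues. It stood in skin at 308 and 299 CPM (WT) against 146 and 166 (KO), and in spleen at 74.9 and 108 against 20.5 and 22.5, without overlap. The fall was 2.73-fold over both (edgeR adjusted p = 0.0495), with log2 changes of -0.96 in skin and -2.08 in spleen and an edgeR adjusted p of 0.0717 for the difference. It was called in each tissue alone (edgeR adjusted p = 0.00461 in skin and 1.96e-05 in spleen). The 9 CD8 T and NK cell markers, Nkg7 included, summed in skin to 279 to 308 CPM of the total count (WT) against 159 to 175 (KO), and in spleen to 111 to 144 against 46.1 to 54.1, most of it Nkg7 itself. Without Nkg7 the other 8 summed in skin to 28.0 and 8.99 (WT) against 24.8 and 20.5 (KO), and in spleen to 30.2 and 27.5 against 23.8 and 29.6, so that WT and KO overlapped in both tissues.

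Of the 7 genes that rose, 3 besides Iigp1 are known from interferon responses or cell metabolism. Ifi27l2a, an interferon-induced mitochondrial protein, stood in skin at 99.4 and 123 CPM (WT) against 180.5 and 223 (KO), and in spleen at 288 and 322 against 360.4 and 495. It rose 1.59-fold without overlap (edgeR adjusted p = 0.0354). Slc16a3, the monocarboxylate transporter that exports lactate, rose 1.51-fold (edgeR adjusted p = 0.03). Gm12250, related to interferon-inducible GTPases and annotated in GENCODE M21 as a processed pseudogene, rose 1.73-fold (edgeR adjusted p = 0.0271). Gramd3, a GRAM-domain protein, rose 1.63-fold (edgeR adjusted p = 0.0137) and Klhl6, a ubiquitin ligase adaptor of lymphocytes, 1.34-fold (0.0356). Uckl1os, an antisense gene, rose 4.87-fold, in skin from 0.987 and 1.42 to 4.23 and 5.73 CPM and in spleen from 1.87 and 1.72 to 9.71 and 10.4 CPM (edgeR adjusted p = 0.0327).

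Of the 44 called genes 40 were protein coding by their GENCODE M21 annotation, which was not checked further. The remaining 4 are uncertain, because the sources used here do not say how strand and multiply matching reads were handled: Uckl1os and Gm12250 rose, and the annotated pseudogenes Gm14021 and Btnl5-ps fell. Gm14021 (chr2:121700765-121701725) lies inside Frmd5 on the same strand, and it fell 5.02-fold. Its fall may not be separate from that of Frmd5. Whether its counts are reads of Frmd5 was not tested. In skin Btnl5-ps had 55 counts in WT and 0 in KO, at least 19.0-fold lower against the floor of 3 counts over the KO skin libraries, and 25 against 3 counts in spleen (ratio 8.5, 95% interval 2.59 to 44.0).

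Among chemokine receptor genes that lie close to Xcr1 on chromosome 9, Cxcr6, Ccr1, Ccr3 and Ccr2 also had lower levels in KO. They were looked at only after the values of Xcr1 and Ccr1 had been seen. Each of these 5 genes was lower in both KO libraries than in both WT libraries of each tissue, beside 4.34% of all tested genes. Of the 5, Xcr1 and Ccr1 were called, beside 0.298% of all tested genes called lower. Within 500 kb of Xcr1 15 genes were tested, Xcr1 included, and 2 were called. Among the 15, Lars2, Limd1, Sacm1l, Slc6a20b, Lztfl1 and Fyco1 overlapped between genotypes in at least 1 tissue. Cxcr6, the receptor of CXCL16, stood in skin at 1706 and 1462 CPM (WT) against 370.5 and 328 (KO), and in spleen at 154 and 160.0 against 20.8 and 7.35, but its log2 change of -2.71 ± 0.38 did not pass the test of 1 common effect (edgeR adjusted p = 0.0962). Its values were -2.18 in skin and -3.51 in spleen (edgeR adjusted p = 0.49 for the difference). The log2 changes over both tissues of Ccr3 and Ccr2 were -1.12 and -0.81 and did not pass (edgeR adjusted p = 0.262 and 0.638). Ccr9, a gut homing receptor on the other side of Cxcr6, had a log2 change of 0.02 (edgeR adjusted p = 0.994).

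Some genes with low KO levels in both tissues did not pass the test of 1 common effect, in which any difference between the tissues counts as spread. Ltb4r1, the receptor of leukotriene B4, stood in skin at 705 and 371 CPM (WT) against 53.1 and 23.5 (KO), and in spleen at 79.8 and 65.5 against 2.7 and 0.712. No groups overlapped, and the log2 change was -4.17 ± 0.50 with an edgeR adjusted p of 0.0658, which passed in 8 of 21 alternatives. Plin2, a lipid droplet coat protein and PPAR target, had a log2 change of -2.57 ± 0.41 (edgeR adjusted p = 0.0962), with -3.21 in skin and -1.63 in spleen. Gzmb, encoding granzyme B, had a log2 change of -2.02 ± 0.44 (edgeR adjusted p = 0.278) and stood in skin at 2572 and 1131 CPM (WT) against 819.7 and 502 (KO), and in spleen at 143 and 112 against 18.6 and 18.5. A fit with 1 coefficient per group and the effect averaged over the tissues called 98 genes (0.789%), 37 higher (0.298%) and 61 lower (0.491%). Of these 58 were not called with 1 common effect, and in 38 of the 58 the tissues differed at an unadjusted p under 0.05.

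How far the tissues shared their effects was then read from each tissue alone. In skin 111 genes were called (0.894%), 38 higher (0.306%) and 73 lower (0.588%; 52 and 64 with upper-quartile scaling), and in spleen 35 (0.282%), 1 higher (0.00806%) and 34 lower (0.274%), in the edgeR fit with 1 coefficient per group. Called in both with the same sign were 7 genes, namely Pparg, Gpt2, Frmd5, Zbtb32, Itga1, Nkg7 and Iigp1, which make up 6 of 73 lower skin calls and 6 of 34 lower spleen calls besides Iigp1. Of the 44 genes called over both tissues, 27 were called in skin and 10 in spleen, and 14 in neither.

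Genes that fell in skin leaned the same way in spleen. Of the 73, 51 (69.9%) were below 0 in spleen, beside 49.8% of all tested genes that were below 0 in skin, and their median log2 change there was -0.28. At an unadjusted p under 0.05, 23 of them were lower in spleen and 0 higher, and without Pparg the counts were 50 of 72 and 22. Among the 6075 tested genes below 0 in skin, 269 were lower and 142 higher in spleen at that p. Of the 38 genes that rose in skin 27 (71.1%) were above 0 in spleen, beside 48.9% of all genes above 0 in skin. Of these 38, 8 were higher and 5 lower in spleen at an unadjusted p under 0.05. Among the 6305 tested genes above 0 in skin, 195 were higher and 362 lower in spleen at that p. The share of 71.1% was less stable, at 36.0% to 100% over 20 alternatives (36.0% without WT skin replicate 2). That of the genes that fell stayed between 68.8% and 90.0%.

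The reverse reading did not give the same picture. Of 34 genes that fell in spleen 15 (44.1%) were below 0 in skin, beside 48.4% of all genes below 0 in spleen. Of the 34, 10 were lower and 5 higher in skin at an unadjusted p under 0.05. Among the 6253 tested genes below 0 in spleen, 375 were lower and 354 higher in skin at that p. Over 20 alternatives the share of 44.1% ran from 20.5% (limma-voom) to 100% (5 genes, without WT spleen replicate 2). Without KO spleen replicate 1, 109 genes fell in spleen, of which 34 (31.2%) were below 0 in skin. Psmd3, a proteasome subunit, and Vars, the valyl-tRNA synthetase, were called in both tissues with opposite signs. Psmd3 rose 2.69-fold in skin and fell 3.56-fold in spleen, and Vars rose 1.90-fold and fell 2.22-fold.

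**Figure D3:**
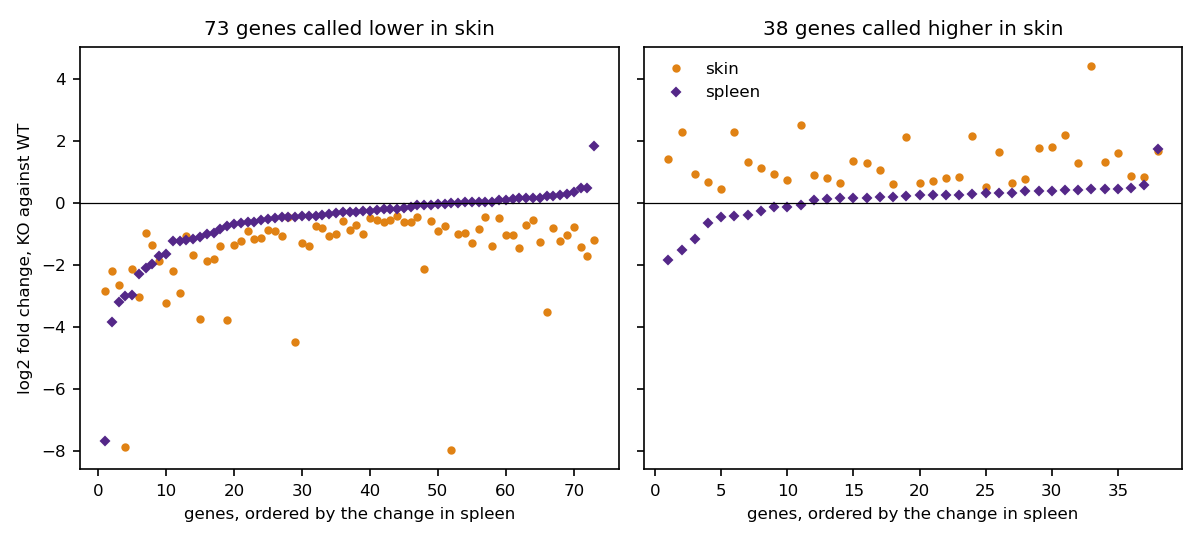
Log2 fold change of KO against WT in skin (orange circles) and in spleen (purple diamonds) for the 73 genes called lower in skin (left) and the 38 called higher in skin (right), ordered by the change in spleen. In spleen 51 of the 73 are below 0 and 27 of the 38 above 0, most of them closer to 0 than in skin.

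Across all 12414 genes the estimated changes in the 2 tissues were nearly uncorrelated. Pearson's r across genes was 0.08 and Spearman's rho 0.01, and 49.2% of genes had the same sign, where genes are not independent replicates. Of these genes 12370 were not called, and each group had 2 libraries. Noise in such estimates lowers a correlation, so these values do not show how far the effects themselves differ. Its part was not tested. In 987 genes (7.95%) the libraries did not overlap in either tissue and moved the same way, 448 higher (3.61%) and 539 lower (4.34%). In 1005 genes (8.1%) they did not overlap and moved in opposite ways. At an unadjusted p under 0.05 for 1 common effect there were 975 genes (7.85%), 419 higher and 556 lower. The difference between the tissues was called for 12 genes (0.0967%), 9 with the higher value in skin (0.0725%) and 3 in spleen (0.0242%). None of the 12 was among the 44.

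Nearly all genes that fell stood higher in skin than in spleen. These levels come from the same libraries as the genotype contrast. A gene with high counts in skin can be tested and called through skin alone, as Areg and Atf3 were. The shares that follow are therefore a description and no independent support. Of the 37, 36 had a higher level in WT skin than in WT spleen (97.3%), beside 47.5% of all tested genes, and 35 of 37 were higher in skin in KO too. Their median ratio of WT skin to WT spleen was 5.00, and that of KO skin to KO spleen was 6.02, beside 0.97 and 0.98 over all tested genes. The 2 that were not higher in skin in both genotypes were Btnl5-ps and Zan, the zonadhesin gene, which stood at 4.69 and 3.56 CPM in WT skin and 10.3 and 13.7 in WT spleen and fell 8.39-fold over both (edgeR adjusted p = 0.0142). Of the 7 genes that rose, 2 were higher in WT skin than in WT spleen. In such bulk samples fewer cells of a kind and less RNA per cell cannot be told apart.

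Gene lists gave the pathway context. Over all tested genes the median log2 change over both tissues was 0.00, 24.4% of genes were below 0 in both tissues and 24.8% were above 0 in both, 4.34% were lower and 3.61% higher in every KO library of both tissues, and 0.298% were called lower and 0.0564% higher. At an unadjusted p under 0.05 for 1 common effect, 556 of the 12414 tested genes were lower and 419 higher. Calls in a list are those of the fit with 1 common effect in legacy mode. For lists whose count moved most the range over the 21 alternatives is given. Of 44 tested tissue Treg effector genes 4 fell (Pparg, Il10, Klrg1 and Areg), 0 rose and 40 did not pass. Pparg is the deleted gene, so its fall comes from the design. Of the 4 it alone kept its call in all 21 alternatives. In this list, Pparg included, 18 were lower in every KO library of both tissues and 2 higher. Below 0 in both tissues were 26, against 6 above. The median was -0.16 in skin and -0.40 in spleen. Over the alternatives 1 (without KO skin replicate 1) to 12 (without a low-count filter) members were called lower and 0 to 2 higher. Members that did not pass included Lgals3, galectin-3 (log2 -1.13, edgeR adjusted p = 0.0855), Cd44, the hyaluronan receptor (-0.38, 0.0954), the transcription factor genes Maf (-0.40, 0.145) and Batf (-0.40, 0.164), and Nt5e, the adenosine-producing enzyme CD73, with a positive value (0.43, 0.0822).

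Resting lymphoid T cell genes leaned the other way, with 0 of 26 called in this edgeR fit and 0 to 5 called higher in the alternatives (5 without a low-count filter, 4 with DESeq2, 3 with the effect averaged), 9 above 0 and 0 below at an unadjusted p under 0.05, 19 above 0 in both tissues and 1 below, and 9 higher in every KO library of both tissues. Their median was 0.33 in skin and 0.29 in spleen. Ccr7, the lymph node homing receptor, stood in skin at 35.0 and 43.1 CPM (WT) against 106 and 88.4 (KO), and in spleen at 665 and 751 against 971 and 976. Its KO libraries were the high ones in both tissues, but the log2 change of 0.84 ± 0.17 did not pass for 1 common effect (edgeR adjusted p = 0.0962; 1.33 in skin and 0.46 in spleen). Klf3, a repressor of the Krüppel-like family (0.40), Bcl2, the survival gene (0.48), and Txk, a Tec-family kinase (0.41), were likewise above 0 and did not pass (edgeR adjusted p = 0.0869, 0.0869 and 0.105).

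Interferon genes leaned upward. In the type I interferon list 1 of 33 rose (Ifi27l2a; 0 to 6 in the alternatives), 20 were above 0 in both tissues and 2 below, and the median was 0.24 in skin and 0.41 in spleen. Among the interferon-inducible GTPases 1 of 18 rose (Iigp1; 1 or 2 in the alternatives), 13 were above 0 in both and 0 below, and the median was 0.34 and 0.31. Each list had 7 members higher in every KO library of both tissues. Gbp4, Ifi47 and Gvin1 had log2 changes of 0.32, 0.31 and 1.52 and did not pass (edgeR adjusted p = 0.217, 0.268 and 0.304), and Tgtp1 and Tgtp2, near-identical neighbours whose reads can be split between them, had 0.91 and 0.55 (0.441 and 0.455).

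Among PPAR target genes 0 of 22 were called over both tissues in this edgeR fit, against 1 called lower in 8 of the 21 alternatives, among them edgeR without legacy mode and DESeq2, and 7 were lower at an unadjusted p under 0.05. In all 14 were below 0 in both and 0 above, and 5 were lower in every KO library of both tissues. The medians were -0.20 in skin and -0.15 in spleen. Besides Plin2, the members of smallest p were Ehhadh, a peroxisomal oxidation enzyme (-0.81, edgeR adjusted p = 0.345), Slc25a20, the carnitine carrier (-0.37, 0.375), and Acaa2, a thiolase (-0.30, 0.498). The fatty acid oxidation list, which shares several of these genes, had 0 of 25 called in edgeR, here and in the 21 alternatives, and 7 lower at an unadjusted p under 0.05, with 16 below 0 in both and 1 above, and medians of -0.22 and -0.08. Cholesterol and fatty acid synthesis genes had 0 of 27 called in edgeR and 3 higher at an unadjusted p under 0.05, with 12 above 0 in both and 4 below.

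Genes of the dissociation and stress response, which tissue digestion can induce, had 2 of 38 called, Atf3 and Gadd45b, both lower. Over the alternatives 0 to 11 were called lower, with 11 without a low-count filter, 9 with DESeq2, 5 and 6 with limma-voom, 4 with edgeR without legacy mode, and 0 without WT skin replicate 1 or either KO skin library. In this list 20 were below 0 in both tissues and 2 above, 10 were lower in every KO library of both tissues, and the medians were -0.33 in skin and -0.15 in spleen. Gadd45b, a growth arrest gene, fell 1.38-fold (edgeR adjusted p = 0.0358), and Atf3, a stress-induced factor, stood at 0 to 1.14 CPM in the spleen libraries and so was measured in skin. Nr4a1, an immediate early gene downstream of the T cell receptor, had a log2 change of -0.51 ± 0.11 and did not pass (edgeR adjusted p = 0.0697). The part of this list in the effector gene values was not tested.

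**Figure D4:**
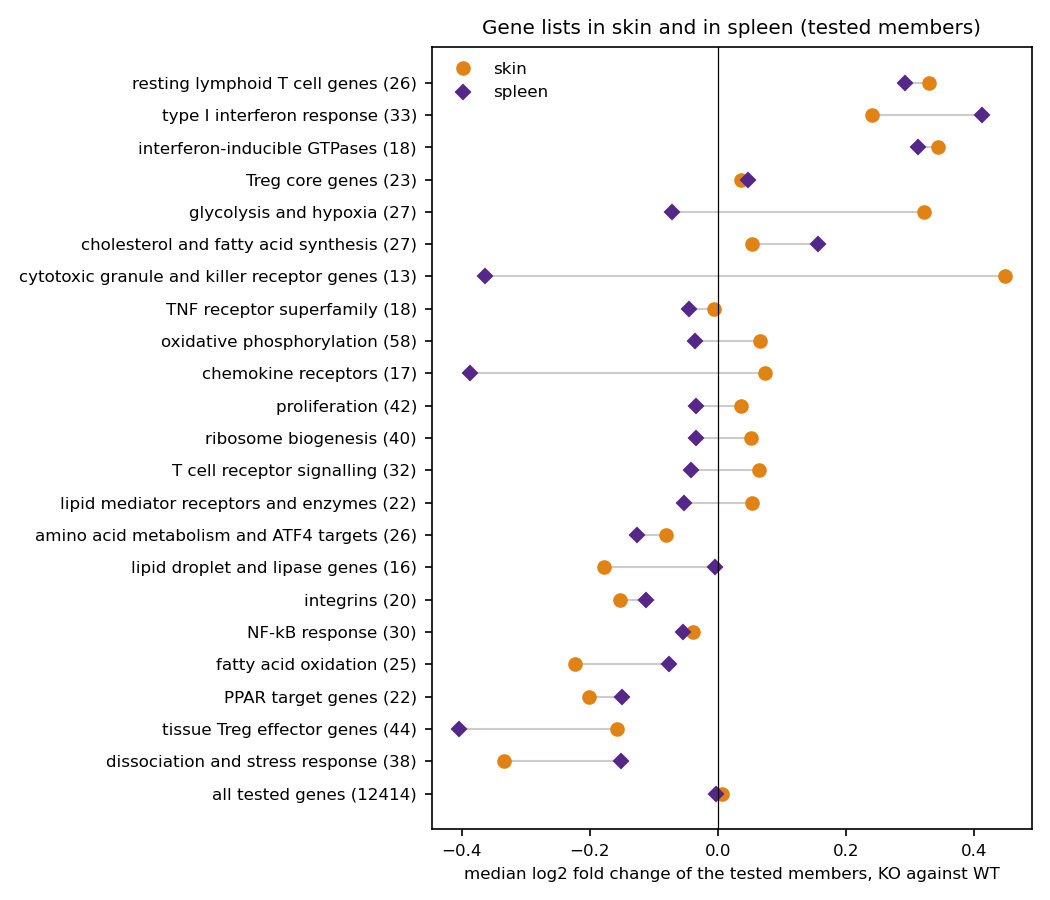
Median log2 fold change of KO against WT over the tested members of each of 22 gene lists (number tested in parentheses) in skin (orange circles) and in spleen (purple diamonds), above the same medians over all 12414 tested genes. Effector, PPAR target, oxidation and stress lists lie left of 0 in both tissues and the resting and interferon lists right of 0. The cytotoxic, chemokine receptor and glycolysis lists have opposite signs in skin and spleen. So do the lipid mediator, proliferation, oxidative phosphorylation, ribosome biogenesis and T cell receptor signalling lists, with medians nearer 0.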

How the data were processed

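The authors deposited 1 table of raw counts, whole numbers by gene symbol, for 8 poly(A)-primed libraries of sorted Tregs. Per the submitters' processing notes the genome build was mm10 and the tools were STAR 2.7.3a and featureCounts; annotation and strand setting are not given in the sources read here. The count table held 55011 symbols, of which 28902 had a count, and every line named a gene.

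Genes were filtered with filterByExpr (minimum count 10), scaled by TMM and tested with edgeR 4.0.16 in R 4.3.3 (robust quasi-likelihood in legacy mode, model tissue + genotype, Benjamini-Hochberg over 12414 genes, threshold 0.05). The biological coefficient of variation was 19.0%. Fold changes used a prior count of 0.125. Effects within tissues and their difference came from a fit with 1 coefficient per group. The fit was tested on simulated data. The test plan did not name the legacy mode. It was chosen after both modes had been run on these data, because it gave the 111 skin and 35 spleen calls of an earlier analysis of the same table. DESeq2 1.42.0 and limma 3.58.1 were alternatives. Replicates of a group differed beyond sampling noise (chi-square per degree of freedom 4.48 to 7.32). Positions came from GENCODE M21, in which 12217 tested genes were found by symbol.

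The members and the 31 gene lists were chosen with earlier results of these data known. Named were Pparg and Foxp3, up to 15 shared genes per direction by fold change with an average log2 CPM of at least 2, genes called in both tissues alone, 6 called genes by the difference between tissues, and up to 4 list members by p. The ranking left out clone-named genes, pseudogenes and sex-linked genes, and other genes named in the text were chosen after their values were seen. Of the 117 genes this rule gave, the text describes some. The alternatives were followed for those whose change between KO and WT it describes, and not for marker genes given only by their level. Some genes are not reported here.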

Additional observations from a re-analysis of the deposited data

Results flagged for a closer look

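The genotype effects of Psmd3 and Vars differed between skin and spleen in edgeR's test of the difference, and they were called in both tissues with opposite signs. For Psmd3 the skin effect exceeded the spleen effect by 3.26 on the log2 scale (SE 0.40, edgeR adjusted p = 0.0114). It stood in skin at 14.6 and 31.3 CPM (WT) against 52.6 and 67.6 (KO), and in spleen at 190.02 and 175 against 60.7 and 42.2. For Vars the difference was 2.07 (SE 0.25, edgeR adjusted p = 0.00446), with skin levels of 72.8 and 108 CPM (WT) against 150.4 and 191 (KO) and spleen levels of 183 and 170.0 against 86.3 and 73.1. The call of Psmd3 ended without either KO skin library or either WT spleen library (edgeR adjusted p from 0.0671 to 0.113), and that of Vars ended without KO skin replicate 2 (0.0805), with the direction unchanged in all 21 alternatives for both genes.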

How the results depend on the processing

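The direction of the 44 called genes was the same in every alternative that gave them a value (21, or 20 for Btnl5-ps, which the filter of 30 counts left out), and 7 kept their call in all of them. The number of genes called over both tissues, with shared genes higher and lower in parentheses, was 98 with the effect averaged over tissues (33 and 58), 117 with DESeq2 (32 and 76), 77 with limma-voom (10 and 56), 76 with quality weights (11 and 57), 247 without a low-count filter (57 and 110), 17 against a fold threshold of 1.2 (1 and 15), and 81 with edgeR without legacy mode (12 and 57), a setting tried after seeing the data, as was the choice of legacy mode for the reported values. With upper-quartile scaling it was 39 (11 and 27). Without the filter 344 genes were called in skin, 154 in spleen and 233 for the difference, and DESeq2 called 75 in spleen and 92 for the difference. The cause of these shifts was not tested.

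Leaving out 1 library gave 7 to 50 calls over both tissues, with 1 to 8 shared genes higher and 6 to 41 lower, 21 to 194 in skin, 5 to 116 in spleen and 0 to 139 for the difference. The lowest counts over both tissues came without KO skin replicate 1 and the highest without KO spleen replicate 1. The replicate block gave 49 calls, of which 37 were among the 44, with 9 shared genes higher and 37 lower. Libraries with the same number share their sex. Their deviations correlated at 0.03 to 0.11 over all genes and at -0.03 to 0.05 once sex-linked genes were left out, and the labels do not tie the numbers to animals, so no pairing was taken from them.

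Ccr9, near 0 over both tissues, changed sign in 7 alternatives: it was -0.0658 with limma-voom, -0.0482 with quality weights, -0.0566 without legacy mode, and as low as -0.15 when 1 library was left out, against a highest value there of 0.24. The cell type marker genes Alas2, C1qb, Cd68, Cd8b1, Col1a1, Hbb-bs and Prf1 met the naming rule and also changed sign in at least 1 alternative. The report gives no log2 change for them, only levels of C1qb and Cd68. They were left out of the counts here after the changes of sign were seen. List medians kept their sign in all settings for the effector, resting, PPAR target, oxidation, interferon and stress lists. They changed it for the chemokine receptor, cytotoxic, TNF receptor and lipid mediator lists. The medians of the proliferation, oxidative phosphorylation, ribosome biogenesis and T cell receptor signalling lists changed sign too. Depth limits the spleen values of low genes such as Areg and Atf3, where 1 count is worth 0.252 to 0.309 CPM of the total count.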

Other observations

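In several gene groups basic to Tregs no member passed the test, beside 0.354% of all tested genes called in either direction. At that share lists of this size can hold none, so 0 calls is not a result about these groups. At an unadjusted p under 0.05, 556 of the 12414 tested genes were lower and 419 higher. Of 23 tested Treg core genes 0 were called over both tissues in the edgeR fit used for the report, with 2 higher and 3 lower at an unadjusted p under 0.05 and medians of 0.04 in skin and 0.05 in spleen. In 4 of the 21 alternatives 1 or 2 of them were called, 2 higher with the effect averaged over tissues. Of 42 proliferation genes 0 were called (0 higher and 1 lower at that p), and of 58 genes of oxidative phosphorylation 0 were called (0 higher and 1 lower). Of 40 genes of ribosome biogenesis 0 were called (1 higher and 0 lower), with medians of 0.05 in skin and -0.03 in spleen. No member of these last 3 lists was called in any of the 21 alternatives. The T cell receptor signalling list held 1 call among 32 genes, the fall of Ubash3b, and the integrin list 1 among 20, the fall of Itga1. Over all tested genes 0.298% were called lower.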
